A study of Mus musculus with 8 samples.

Results

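Deep intronic peaks were studied in mouse embryonic hearts, as differentially accessible sites that lay inside a transcript, overlapped no exon and were more than 50 kb from the nearest annotated transcription start site (TSS). Peaks with more than 50% of their bases masked as repeat were left out. By this rule 626 of the 15736 listed peaks were members, all 151 bp wide. Chromatin accessibility had been measured by ATAC-seq, in which Tn5 transposase inserts adapters into open DNA, in hearts at E10.5. Of the 8 samples, 4 were labelled wild type (WT) and 4 *Chd4-CMko*. In *Chd4-CMko* hearts *Chd4* is deleted by a Cre recombinase driven from the cardiomyocyte gene *Tnnt2* (*Tnnt2* Cre/+; *Chd4* fl/fl). The study states crosses of *Chd4* fl/fl females with *Tnnt2* Cre/+; *Chd4* fl/+ males for its stained E10.5 embryos, and no cross for the ATAC-seq hearts. Control embryos were littermates, and each sample was a pool of whole dissociated hearts, 3 or 4 per sample in different accounts, so cells other than cardiomyocytes that keep CHD4 were measured too. The files held 1 list of peaks higher in *Chd4-CMko* (gained, 12991) and 1 list of peaks higher in WT (lost, 2745), with no value or depth per sample. No result therefore has a replicate error or a test between genotypes, and fewer cells of a type cannot be told apart from less open DNA per cell.

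CHD4 is the ATPase of NuRD, a complex of remodelling and deacetylase subunits that closes chromatin at enhancers and promoters of genes that a cell does not use. Introns of very long genes hold many enhancers, and an enhancer inside an intron can act on its host gene or on a gene further away. Long introns are typical of genes of the nervous system, of cell adhesion molecules and of developmental transcription factors. NFY binds the CCAAT element of promoters and enhancers. KLF and SP factors bind GC-rich boxes, MEF2 factors bind A/T-rich elements of muscle genes, and SOX factors bind short A/T-rich sites in progenitor cells.

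Of the 626 deep intronic peaks, 453 were gained and 173 were lost, a gained share of 72.4% (Wilson 95% interval 68.7 to 75.7), against 82.6% gained among all listed peaks. All intervals cover counting error over peaks only, and neighbouring peaks are not independent. Deep intronic peaks made up 3.49% of the gained list and 6.30% of the lost list. Outside the deep intronic set the gained share was 83.0%, a difference of -10.6 percentage points (Newcombe 95% interval -14.3 to -7.20). The set was therefore the more heavily represented in the list of peaks that were higher in WT.

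Sequences of 5 members show the elements by which the gained and lost members differed, and are printed from the plus strand of mm10 (GRCm38), 5′ to 3′. Capitals mark matches to the NFY, KLF, MEF2 or SOX strings on either strand. The first is the member with the highest gained score and an NFY match. The next 3 have the highest score within their own list among members with a KLF, a MEF2 and a SOX match. The first and second of these are gained and the last is lost. The fifth has the most NFY matches of any member and was chosen after its values were seen.
*Daam1* intron 23, gained, score 320.5, chr12:71983276-71983426, NFY: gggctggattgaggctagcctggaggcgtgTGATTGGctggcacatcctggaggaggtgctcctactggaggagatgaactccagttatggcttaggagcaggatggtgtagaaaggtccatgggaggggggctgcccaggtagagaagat
*Lrfn2* intron 1, gained, score 314, chr17:49029957-49030107, KLF: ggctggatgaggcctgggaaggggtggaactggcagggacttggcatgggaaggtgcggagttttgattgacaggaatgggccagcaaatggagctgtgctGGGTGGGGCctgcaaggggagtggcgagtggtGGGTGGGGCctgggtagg
*Gm20388* intron 1, gained, score 192, chr8:122145077-122145227, MEF2: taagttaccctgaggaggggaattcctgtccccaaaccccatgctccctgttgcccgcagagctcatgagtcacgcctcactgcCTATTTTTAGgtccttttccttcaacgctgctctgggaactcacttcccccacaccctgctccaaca
*Bach2* intron 2, lost, score 102.9, chr4:32351329-32351479, SOX: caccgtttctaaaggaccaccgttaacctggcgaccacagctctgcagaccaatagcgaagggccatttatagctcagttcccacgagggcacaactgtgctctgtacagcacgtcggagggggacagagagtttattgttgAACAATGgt
*Dok5* intron 6, gained, score 27.5, chr2:170863308-170863458, NFY: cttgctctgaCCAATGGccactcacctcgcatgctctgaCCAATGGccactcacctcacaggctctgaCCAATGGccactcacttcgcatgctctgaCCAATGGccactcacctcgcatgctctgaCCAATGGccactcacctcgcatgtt

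*Daam1* encodes a formin-related protein that links Wnt signalling to actin, and its peak held 1 NFY match. *Lrfn2* encodes a synaptic adhesion molecule, and its peak held 2 KLF matches. *Bach2* encodes a transcriptional repressor of the CNC family. The *Dok5* peak held 5 NFY matches at a constant spacing of 29 bases between starts, so the whole interval was a tandem array. *Dok5* encodes an adaptor protein of receptor tyrosine kinase signalling.

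Compared with intronic peaks at 3 to 50 kb from a TSS (4418 peaks under the same repeat limit, 76.3% gained), the gained share of deep intronic peaks was lower by -3.94 percentage points (-7.77 to -0.344). Intergenic peaks beyond 50 kb (760 peaks) were 78.2% gained, and the deep intronic share differed from it by -5.79 points (-10.4 to -1.24). The difference from nearer intronic peaks was not firm. Its interval included 0 under 8 of 10 alternatives tried, and its sign turned, to 0.459 points (-3.75 to 4.09), when both lists were limited to scores at or above the median of the lost list. The difference from intergenic peaks lost its call under 3 alternatives, among them a distance limit of 100 kb (-0.564 points, -9.25 to 7.95).

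Within introns the gained share fell with distance up to 50 kb and then showed no further order. It was 80.2% (78.3 to 81.9, 1850 peaks) at 3 to 10 kb, 74.5% (72.4 to 76.5, 1707 peaks) at 10 to 25 kb and 71.5% (68.4 to 74.5, 861 peaks) at 25 to 50 kb. Among members it was 70.8% (65.4 to 75.7) of 295 peaks at 50 to 75 kb, 76.4% (68.8 to 82.6) of 144 peaks at 75 to 100 kb, 71.5% (64.04 to 77.98) of 158 peaks at 100 to 200 kb and 72.4% (54.3 to 85.3) of 29 peaks further away. The member bins overlap one another and the bin at 25 to 50 kb. At the limit itself, 78 of 106 intronic peaks at 45 to 50 kb were gained (73.6%) and 70 of 100 at 50 to 55 kb (70%). At the repeat limit, 11 of 14 deep intronic peaks with 40 to 50% masked bases were gained, as were 11 of 11 with 50 to 60%, which were not members.

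**Figure D1:**
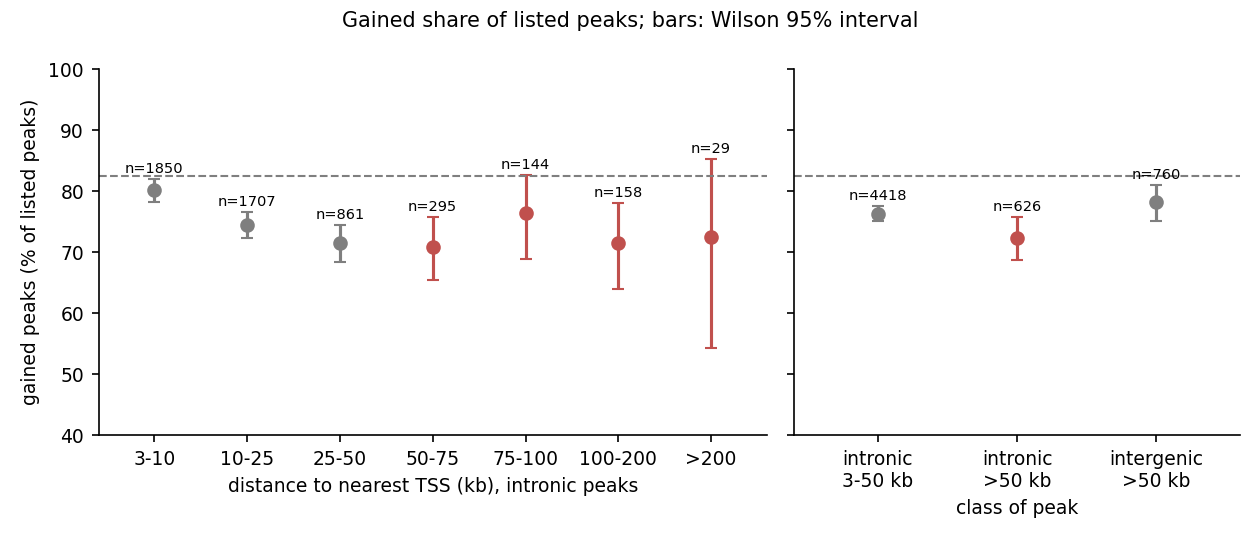
Gained peaks as a percentage of listed peaks, by distance to the nearest TSS for intronic peaks (left, in kb) and by class (right); points are shares, bars are Wilson 95% intervals, n is the number of peaks, and the dashed line is the share over all listed peaks (82.6%). The share fell from 80.2% at 3 to 10 kb to 71.5% at 25 to 50 kb, and the 4 bins beyond 50 kb (red) lay between 70.8% and 76.4%.

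Gained and lost members did not separate by their distance from genes. The median distance to the nearest TSS was 76476 bp for gained members (quartiles 60011 and 106302) and 75915 bp for lost members (57661 and 109550). Beyond 100 kb lay 134 of 453 gained members (29.6%) and 53 of 173 lost members (30.6%), a difference of -1.06 points (-9.32 to 6.68). For reference, all 151-base windows of the genome that met the same rule were counted: there were 829406, covering 125.2 Mb or 4.73% of windows without unsequenced bases, and 36.1% of them lay beyond 100 kb. Deep intronic peaks thus occurred at 4.998 per Mb (3.62 gained and 1.38 lost). Intronic sequence at 3 to 50 kb held 8.50 peaks per Mb, and intergenic sequence beyond 50 kb held 2.91 per Mb.

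Members lay well inside their hosts. The median host intron was 111135 bp long for gained and 93960 bp for lost members, and the nearest exon of the host transcript was a median of 23870 and 19955 bp away. First introns held 106 gained members (23.4%) and 32 lost members (18.5%), a difference of 4.90 points (-2.51 to 11.4). By position along the host transcript the medians were 57.5% and 54.9% of its length. No masked base was present in 265 gained members (58.5%) and 109 lost members (63.0%), a difference of -4.51 points (-12.7 to 4.13).

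Peak scores, whose scale the study does not state and which are compared only within a list, were lower for members than for intronic peaks nearer to a TSS. The median score of gained members was 49.5 (range 21 to 320.5), against 59.0 for gained intronic peaks at 3 to 50 kb. Of the gained members 35.1% reached the median of the whole gained list, against 46.0% of the nearer intronic peaks, a difference of -10.9 points (-15.5 to -6.08). Lost members had a median of 32.2 (range 16.1 to 187.5), and 38.7% reached the median of the lost list, against 55.1% of the nearer lost peaks, a difference of -16.4 points (-23.9 to -8.36). Against intergenic peaks beyond 50 kb the same differences were 3.62 points (-2.11 to 9.39) for gained and 5.60 points (-4.60 to 15.6) for lost members, with 0 inside both intervals.

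The highest gained scores were those of the *Daam1* and *Lrfn2* peaks above, followed by a peak in intron 1 of *Sdk2* (300.5, chr11:113990647-113990797), which encodes a synaptic adhesion molecule. The *Sdk2* peak held 1 NFY match. Among lost members the highest score was in intron 1 of *Ppargc1b* (187.5, chr18:61331818-61331968), which encodes the metabolic coactivator PGC-1β. It was followed by intron 2 of *Fam19a5* (184.4, chr15:87715439-87715589), a gene for a secreted chemokine-like protein, and intron 3 of *Fat3* (161.3, chr9:16215488-16215638), a gene for an atypical cadherin. The *Ppargc1b* peak held an NKX2-5 match, and the other 2 lost peaks held none of the strings searched.

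Gained members were richer in G and C than lost members. Mean GC content was 52.5% ± 5.90 (SD over 453 peaks) for gained and 49.1% ± 5.88 (SD over 173 peaks) for lost members, a difference of 3.36 points (2.33 to 4.40). Both exceeded the mean of 40.02% ± 7.62 over the matching windows of the genome. The gained share rose with GC content, from 46.1% of 76 members under 45% GC to 69.8% of 189 at 45 to 50%, 76.1% of 197 at 50 to 55%, 80% of 110 at 55 to 60% and 88.9% of 54 at 60% or more. Gained members had less GC than gained intronic peaks at 3 to 50 kb, by -1.98 points (-2.56 to -1.40), and lost members less than their counterparts, by -1.14 points (-2.07 to -0.203). Neither the GC difference nor the rise was particular to members. Gained and lost means were 54.4% and 50.2% in intronic peaks at 3 to 50 kb, and 56.7% and 50.5% over all listed peaks. The gained share at 3 to 50 kb rose from 43.4% under 45% GC to 94.5% at 60% or more.

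Gained shares were therefore also compared within classes of GC content. Within the same GC class, the difference in gained share between deep intronic peaks and intronic peaks at 3 to 50 kb was 2.61 points (-9.70 to 15.2) under 45% GC, 5.06 (-2.43 to 11.9) at 45 to 50%, -0.162 (-6.89 to 5.67) at 50 to 55%, -5.73 (-14.4 to 1.07) at 55 to 60% and -5.57 (-16.8 to 0.741) at 60% or more. All 5 intervals included 0, and the sign was not the same throughout. The classes held 54 to 197 members, and each interval was wider than that of the full comparison. They therefore cannot decide whether the difference holds at equal GC, and GC as its cause was not tested. Against intergenic peaks the interval excluded 0 in the class at 55 to 60% (-12.5 points, -21.5 to -4.05) and in no other class.

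**Figure D2:**
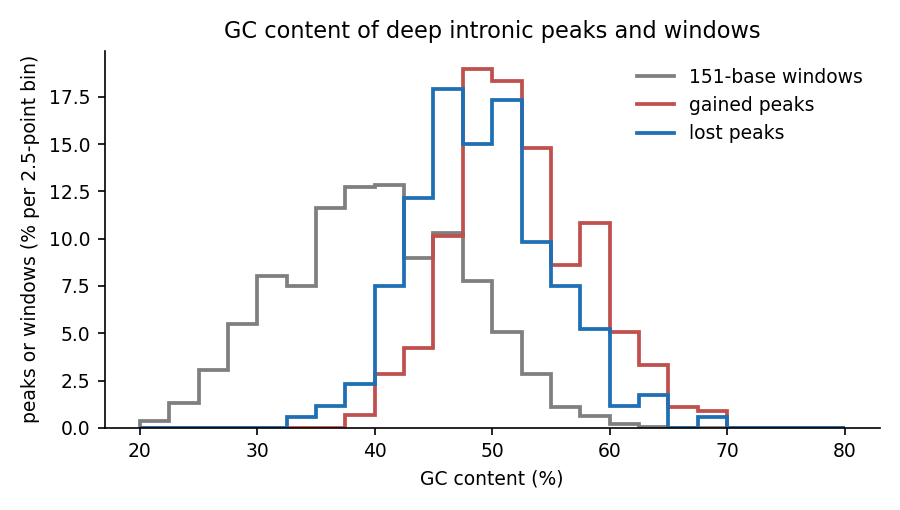
GC content (%, bins of 2.5 points) of gained members (red), lost members (blue) and the 829406 windows of 151 bases that met the same rule (grey), each as a percentage of its own set. The windows average 40.02%, the lost members 49.1% and the gained members 52.5%.

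For 20 transcription factor motifs, each a short set of strings searched on both strands, 4 differed between gained and lost members, by the interval of the difference. None of these 4 calls held under every alternative, as given in the last section. NFY (CCAATCA or CCAATCG or CCAATGA or CCAATGG) was present in 73 of 453 gained members (16.1%, 13.0 to 19.8) and 7 of 173 lost members (4.05%, 1.97 to 8.12), a difference of 12.1 points (6.95 to 16.3). KLF (GGGCGGGGC or GGGTGGGGC or GGGCGTGGC or GGGTGTGGC) was present in 33 gained members (7.28%) and 1 lost member (0.578%), a difference of 6.71 points (3.38 to 9.52). The MEF2 motif was present in 27 gained members (5.96%) and 1 lost member (0.578%), a difference of 5.38 points (2.18 to 7.999). SOX (AACAATG) went the other way, with 6 gained members (1.32%) and 11 lost members (6.36%), a difference of -5.03 points (-9.76 to -1.87).

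Among the matching windows of the genome the share with a motif was 5.42% for NFY, 0.408% for KLF, 3.86% for MEF2 and 3.44% for SOX. The windows' NFY share lay inside the interval of the lost members, and the share of gained members was 2.97 times that of the windows. Over all listed peaks the shares were 16.4% for NFY, 12.1% for KLF, 2.94% for MEF2 and 1.32% for SOX. The gained members' NFY share differed from that of gained intronic peaks at 3 to 50 kb by -1.002 points (-4.37 to 2.87). Their KLF share was lower than in those nearer peaks, by -3.96 points (-6.29 to -1.01). All 4 motifs went the same way between gained and lost intronic peaks at 3 to 50 kb. There the shares were 17.1% and 2.39% for NFY, 11.2% and 1.24% for KLF, 4.03% and 1.81% for MEF2, and 0.920% and 3.53% for SOX.

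Since gained members are richer in GC, the motifs were also counted within GC classes. At 45 to 50% GC, 22 of 132 gained and 3 of 57 lost members held NFY (16.7% and 5.26%, windows 6.23%), and at 50 to 55% GC 29 of 150 and 1 of 47 did (19.3% and 2.13%, windows 5.33%). At 40 to 45% GC the shares lay close together, 2 of 32 gained and 2 of 34 lost members (6.25% and 5.88%, windows 6.15%), and at 55 to 60% 14 of 88 and 1 of 22 held NFY (15.9% and 4.55%, windows 4.40%). MEF2, which windows held less often as GC rose (6.56% under 40% GC, 0.809% at 45 to 50%), was present in 14 of 132 gained and 0 of 57 lost members at 45 to 50% GC (10.6% for gained). The count of 0 allows a share of up to 5.26% (3 of 57). Of the 33 gained members with KLF, 16 were among the 48 with 60% GC or more, where 5.79% of windows held it and only 6 lost members were available for comparison. SOX was present in 4 of 47 lost and 1 of 150 gained members at 50 to 55% GC, and in 3 of 57 and 4 of 132 at 45 to 50%.

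The E-box of myogenic and other bHLH factors (CAGCTG) was present in 65 gained members (14.3%) and 24 lost members (13.9%), a difference of 0.476 points (-6.15 to 6.09). Windows held it in 5.41% over all GC classes, but more often as GC rose: 8.31% at 45 to 50% GC, 11.8% at 50 to 55%, 15.7% at 55 to 60% and 18.8% at 60% or more. The gained members' shares in the same classes were 15.9%, 12.7%, 17.05% and 16.7%, so beyond 50% GC they were close to the windows. The window shares given next are likewise over all GC classes. The GATA string (AGATAAG) was present in 5.96% of gained and 4.62% of lost members, against 2.51% of windows, and the TEAD string (ACATTCC) in 4.64% and 6.94%, against 2.38%. The NKX2-5 strings (TTAAGTG or TCAAGTG) were present in 3.97% and 6.94%, against 4.74% of windows, and the TBX20 strings (GGTGCTGA or GGTGTTGA) in 2.43% and 2.31%, against 0.911%. The SRF motif was present in 10 gained and 0 lost members, as was the TALE string (TGATTGAC) of homeodomain factors of the MEIS and PBX type. A count of 0 of 173 allows a share of up to 1.73% (3 counts). The intervals of these differences included 0 under the main rule. With protein-coding TSSs only, some excluded 0, among them SRF (2.18 points, 0.699 to 3.30) and TEAD (-3.92 points, -7.48 to -1.03). With 1 mismatch allowed, the SRF difference was 6.78 points (0.811 to 11.7). No member held the REST string (GGACAGCGC), and the CTCF motif was present in 3 gained members (0.662%) and 3 lost members (1.73%), against 0.0532% of windows.

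**Figure D3:**
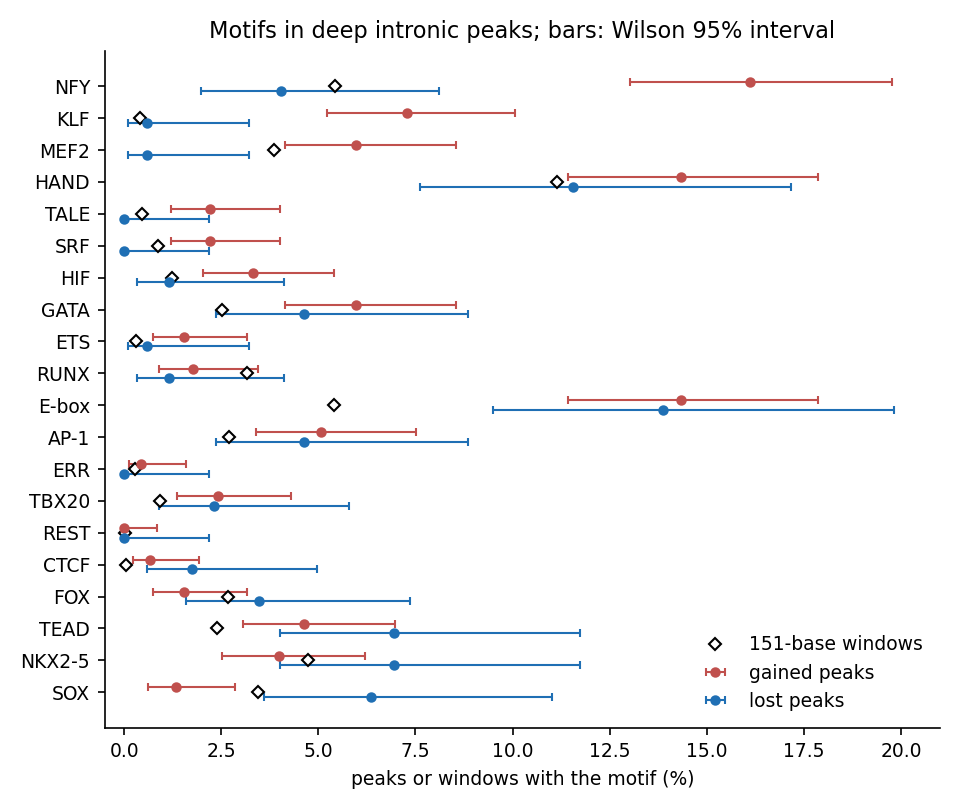
Percentage of gained members (red), lost members (blue) and matching 151-base windows of the genome (diamonds) that hold each of the 20 motifs, ordered by the gained minus lost difference; bars are Wilson 95% intervals. NFY (16.1% and 4.05%), KLF (7.28% and 0.578%) and MEF2 (5.96% and 0.578%) stand at the top, and SOX (1.32% and 6.36%) at the bottom.

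Some gained members were tandem arrays like the *Dok5* peak. Counting peaks in which at least 70% of bases equalled the base at one fixed period of 10 to 75 bases further on, a measure chosen after the sequences were seen, 16 of 453 gained members (3.53%, 2.19 to 5.66) and 1 of 173 lost members (0.578%) qualified. The difference was 2.95 points (0.00552 to 5.13). Of the matching windows 0.171% qualified. At a limit of 80% the counts were 8 and 0. Of the 16 gained arrays, 12 had no base masked as repeat. In the gained intronic peaks at 3 to 50 kb the share was 2.61% (2.12 to 3.21), inside the interval of the members.

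Gained arrays lay in *Sox5* (period 72 bases, 96.2% self-match, score 127.5, and another with 36 bases, 84.3%, score 34.5) and *Dok5* (29 bases, 93.4%, score 27.5), among others. *Sox5* encodes a SOX transcription factor of cartilage, neural and cardiac development. The array inside the long noncoding gene *Gm44626* had a score of 185.5 with a period of 24 bases. Repeated matches of one motif came partly from such arrays. Among gained members with an NFY match, 26 of 73 held 2 or more (35.6%, 25.6 to 47.1), against 3.25% of windows with a match, and none of the 7 lost members did. The share was 28.2% (163 of 577) in gained intronic peaks at 3 to 50 kb and 29.3% (34 of 116) in gained intergenic peaks beyond 50 kb, both inside the interval of the members. Without the arrays it was 21 of 68 (30.9%) in the members. Of 42 distances between neighbouring matches, 22 were 29 to 33 bases, a range picked after the values were seen. The 5 arrays gave 15 of their 16 distances in this range, and the other gained members 7 of 26 (26.9%). In gained intronic peaks at 3 to 50 kb 64 of 232 distances were in this range (27.6%), in gained intergenic peaks beyond 50 kb 5 of 45 (11.1%), and in windows 138 of 1533 (9.002%). Without the arrays the NFY share was still 15.6% for gained and 4.07% for lost members, a difference of 11.5 points (6.36 to 15.7). How reads in such arrays were placed was not tested.

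The members lay in 381 host genes, of which 339 were protein-coding. A single member was found in 240 hosts, and 141 held 2 or more. Gained members alone occurred in 230 hosts, lost members alone in 92, and members of both lists in 59. Only the 141 hosts with 2 or more members could hold both lists. Beside these counts, 72.4% of members and 82.6% of all listed peaks were gained. In these 59 hosts a gained and the nearest lost member were a median of 40.5 kb apart (range 1.75 to 973 kb). The hosts with the most members are named here with ties, which makes 15 genes, as 8 hosts tie with 5 members. The largest count, 11 gained and 1 lost, belongs to *Gm20388*, a single gene model of 4.43 Mb that spans 71 other protein-coding genes. Of its 12 members, 8 have no other host, and it is left out of the plot of hosts, while its members stay in the counts and rates.

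*Camta1*, which encodes a calmodulin-binding transcription activator, held 9 gained and no lost members in a gene of 944.6 kb. Their scores were 102, 92.5, 67.5, 52.5, 44, 43.5, 39, 31.5 and 31, and they lay in introns 3 to 5. *Wwox*, for a WW domain oxidoreductase, held 7 gained members with scores between 25.5 and 97.5 and 1 lost member with a score of 25.8, all in intron 8. The lost *Wwox* member lay 12.97 kb from the nearest gained one. *Asic2*, for an acid-sensing ion channel, held 7 gained members with scores between 27.5 and 94.5, 6 of them in its first intron.

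*Dgki* (diacylglycerol kinase iota, which ends diacylglycerol signals) held 6 gained members, of which 5 lay in intron 1 within 34.1 kb, with scores of 34, 112, 148, 81.5 and 41.5. *Ksr2* (a scaffold of the RAS to MAP kinase pathway) held 6 gained members in introns 5 and 15 with scores between 28.5 and 92. *Zfhx3*, a zinc finger homeobox transcription factor, held 5 gained members with scores between 37 and 79.5, 3 of them with an NFY match. *Cdh13*, for the membrane-anchored T-cadherin, held 5 gained members with scores of 35.5, 30.5, 26, 111.5 and 40. The genes named in this paragraph had no lost member, nor had *Camta1* and *Asic2*. As 72.4% of members and 82.6% of all listed peaks were gained, hosts without a lost member are common at such counts.

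Hosts with both kinds included *Spock1* (a secreted proteoglycan, 4 gained and 2 lost), *Fam19a5* (4 and 1), *Sdk1* (a synaptic adhesion molecule, 4 and 1), *Arl15* (a small GTPase-like protein, 3 and 2), *Atrnl1* (3 and 2) and the long noncoding *Gm31135* (3 and 2). A further 9 hosts of both lists held 4 members each, among them *Npas3*, *Nsmce2*, *Opcml*, *Rad51b*, *Ror2*, *Setbp1*, *Sox5* and *Zfp407*. *Fhod3*, a formin that cardiomyocytes need to assemble sarcomeres, held 3 gained members with scores of 109.5, 71.5 and 33, and 2 lost members with scores of 51.8 and 43. In *Fam19a5* the lost peak of score 184.4 lay in the same intron as gained peaks of score 92.5 and 60.5, and 8.12 kb from a gained peak of score 43. The genotypes therefore differed in both directions inside a single gene.

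The lost members were spread over 151 hosts, of which 3 held more than 2. *Zfpm2* encodes FOG2, the cofactor of GATA4 that heart morphogenesis requires, and held 4 lost members and no gained one. Their scores were 66.8, 22, 21.2 and 19.8, and 3 of the 4 lay in intron 3 within 26.3 kb. All scores but the highest were below the lower quartile of the whole lost list (26.9). *Nsmce2* (a SUMO ligase of the SMC5/6 complex) held 3 lost members and 1 gained, and so did the zinc finger gene *Zfp407*. A further 20 hosts tied with 2 lost members each. Among them *Cacna2d1* (an auxiliary subunit of voltage-gated calcium channels), *Dcc* (the netrin receptor), *Nlgn1* (a synaptic adhesion molecule) and *Pcdh9* (a protocadherin) had no gained member.

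**Figure D4:**
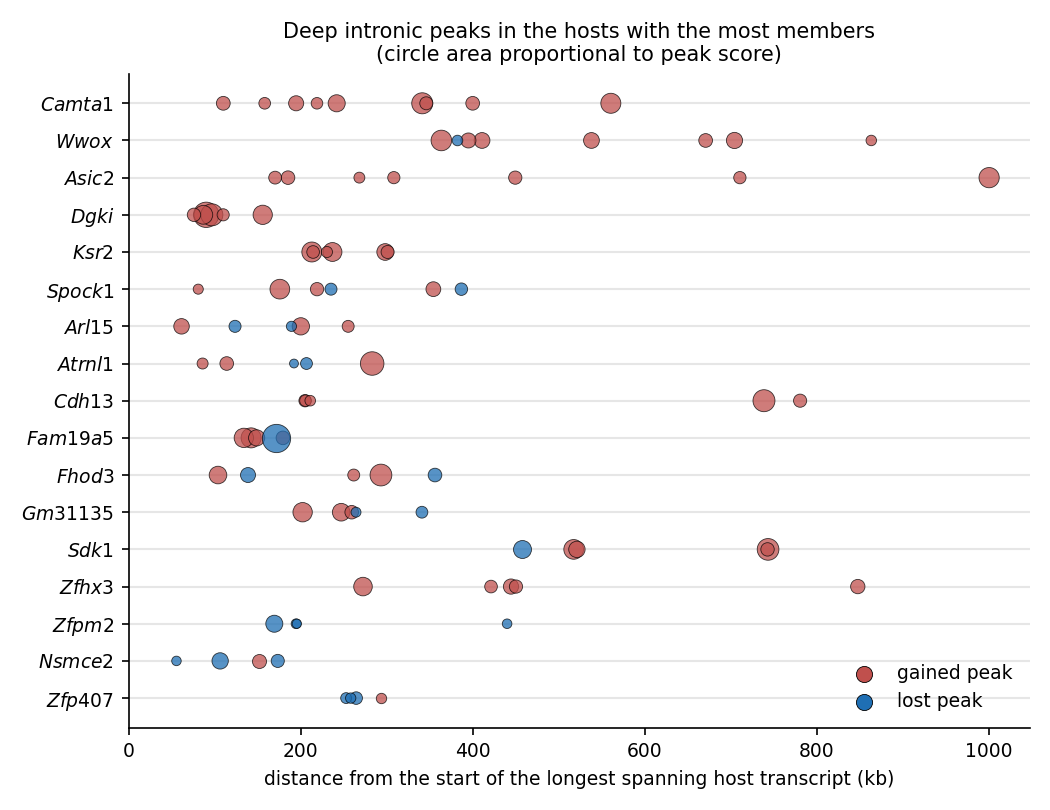
Members in the 14 hosts with the most members (*Gm20388* left out) and the 3 hosts with the most lost members, placed by distance from the start of the longest host transcript (kb); red circles are gained and blue circles lost peaks, with area proportional to score, which is comparable only within a colour. *Camta1*, *Asic2*, *Dgki*, *Ksr2*, *Cdh13* and *Zfhx3* carry gained peaks only, and *Zfpm2* carries 4 lost peaks only.

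The host genes were set against 6 gene lists, with the length of eligible deep intron in each list as the denominator. Members were most frequent in transcription factor genes, at 8.65 per Mb (6.58 to 11.2, exact Poisson 95% interval), against 4.998 per Mb overall. Here 31 of 77 genes with eligible length hosted 39 gained and 20 lost members, among them *Zfhx3* (5 and 0), *Zfpm2* (0 and 4), *Sox5* (3 and 1) and *Npas3* (a bHLH-PAS factor of the nervous system, 2 and 2). The list also holds the chromatin remodelling subunit gene *Arid1b* (2 and 1), while *Camta1* (9 and 0) and *Zfp407* (1 and 3) are in none of the lists and are not in this rate. Signalling genes, a mixed list of kinases, GEFs, phosphodiesterases, growth factors, their receptors and other proteins, held 35 gained and 12 lost members, or 5.996 per Mb (4.41 to 7.97). These hosts included *Wwox* (7 and 1), which is no kinase, the cell-surface proteoglycans *Gpc5* and *Gpc6* (2 and 1 each), and *Prkce* (protein kinase C epsilon, 1 and 2). *Ksr2* and *Ror2* are in none of the lists.

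The 3 lists of neuronal and adhesion genes held fewer members per Mb than the 4.998 per Mb overall. Synaptic receptor and channel genes had 18 gained and 2 lost members in 15 hosts, 2.64 per Mb (1.61 to 4.08), among them the potassium channels *Kcnj6* (2 and 0) and *Kcnd3* (2 and 0) and the calcium channel *Cacna1d* (1 and 1). The channel gene *Asic2* (7 and 0) is in none of the lists, and with it added after its values were seen the rate is 3.37 per Mb (2.22 to 4.91). *Lrfn2* (2 and 0) is in none of the lists either. Synaptic scaffold, release and neuronal signalling genes had 35 and 8 in 26 hosts, 2.92 per Mb (2.11 to 3.93), led by *Dgki* (6 and 0) and *Dab1* (the adaptor of reelin signalling, 4 and 0). Cell adhesion and axon guidance genes had 52 and 21 in 38 hosts, 3.93 per Mb (3.08 to 4.94), led by *Cdh13* and *Sdk1*, with the axon guidance genes *Slit3* (3 and 0) and *Robo1* (1 and 2) both present. Hosts in none of the lists held 372 members, or 5.55 per Mb (5.0025 to 6.15). These rates describe the counts, and neighbouring peaks in one gene were counted separately.

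The list of heart and striated muscle genes held 7 gained and 5 lost members in 6 hosts, 4.44 per Mb (2.30 to 7.76). It also holds genes not confined to these tissues, among them the hosts *Mylk*, *Lpp* and *Palld*. Besides *Fhod3*, these were *Cacna1c*, the cardiac L-type calcium channel, with gained scores of 72 and 45.5, and *Cacna2d1*, with lost scores of 35.5 and 22.9. *Mylk* (myosin light chain kinase) held 1 lost member with a score of 40.1. *Lpp* and *Palld*, both for actin-associated proteins, held 1 gained member each with scores of 46 and 38.5. Of the 66 genes of this list, 20 had any eligible length.

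The gained share by list ran from 58.3% (31.95 to 80.7) for heart and striated muscle and 66.1% (53.4 to 76.9) for transcription factors to 81.4% (67.4 to 90.3) for synaptic scaffold and 90.0% (69.9 to 97.2) for synaptic receptor genes. The difference from all other members was 18.2 points (-2.18 to 26.3) for synaptic receptors and channels, 9.70 (-4.75 to 19.3) for synaptic scaffold, 2.27 (-12.1 to 13.2) for signalling, -1.28 (-13.1 to 8.62) for cell adhesion, -6.91 (-20.1 to 4.50) for transcription factors and -14.3 (-40.9 to 8.33) for heart and muscle. All 6 intervals included 0.

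**Figure D5:**
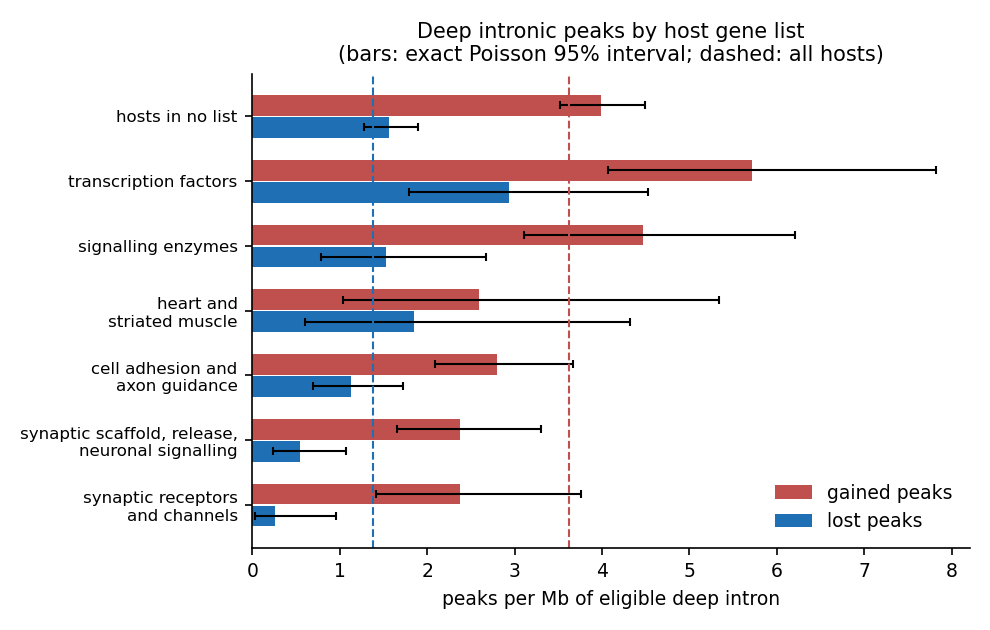
Gained (red) and lost (blue) members per Mb of eligible deep intron in the 6 gene lists and in hosts of no list; bars start at 0, error bars are exact Poisson 95% intervals and dashed lines are the rates over all members (3.62 and 1.38 per Mb). Transcription factor genes stand highest at 5.72 gained per Mb, and both synaptic lists are at 2.38 gained per Mb.

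The genes with the most deep intronic sequence were not those with the most members. The 20 genes with the greatest eligible length, led by the adhesion molecule gene *Lsamp* (1.09 Mb), the receptor phosphatase gene *Ptprd* (0.997 Mb) and *Lrp1b* (0.909 Mb), covered 11.6% of eligible sequence and held 27 members, or 1.87 per Mb (1.23 to 2.71). *Lsamp* and *Ptprd* held 1 member each and *Lrp1b* none, as was also the case for *Dmd*, the dystrophin gene on the X chromosome. The 27 members were 15 gained and 12 lost (55.6% gained, 37.3 to 72.4), against 72.4% gained of all members and 82.6% of all listed peaks. The upper end of the interval just reached the share of all members.

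A gained promoter peak, within 3 kb of any TSS of the host, was present for 102 of 453 gained members (22.5%) and 38 of 173 lost members (21.97%), a difference of 0.551 points (-7.09 to 7.41). With distances to protein-coding TSSs only, the interval lay wholly on the gained side, as given in the last section with its limit. Of gained intronic peaks at 3 to 50 kb, 28.0% had such a host, and the gained members' share was lower by -5.52 points (-9.44 to -1.18). For lost members the difference from lost intronic peaks at 3 to 50 kb (19.2%) was 2.77 points (-3.29 to 9.88). A lost promoter peak was present for 4 gained members (0.883%) and 3 lost members (1.73%). Both shares were lower than in the nearer intronic peaks of the same list, by -2.44 points (-3.29 to -0.966) for gained and -4.28 points (-6.26 to -0.798) for lost peaks. Among the most frequent hosts, *Dgki*, *Cdh13*, *Zfhx3*, *Fam19a5*, *Atrnl1*, *Fhod3* and *Gm31135* had a gained promoter peak, and *Camta1*, *Wwox*, *Asic2*, *Ksr2*, *Spock1*, *Sdk1* and *Arl15* had none.

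Members occurred on every autosome. Gained members per Mb of eligible intron ranged from 1.72 on chromosome 16 (10 peaks) to 6.53 on chromosome 8 (53 peaks), with a mean over 19 autosomes of 3.82 ± 1.19 (SD). Chromosome 8 holds *Gm20388*, *Wwox*, *Zfhx3* and *Cdh13*. The X chromosome held 5 gained and 1 lost member, 0.946 per Mb (0.347 to 2.06), against 5.22 per Mb (4.81 to 5.64) on the autosomes together. It was also lower for intronic peaks at 3 to 50 kb, at 1.75 against 8.77 per Mb, and for intergenic peaks beyond 50 kb, at 0.918 against 3.05 per Mb.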

How the data were processed

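The labels name 8 ATAC-seq samples of E10.5 mouse hearts, 4 per genotype. Reads were aligned to mm10 with BWA-MEM, peaks were called with HOMER (v4.10.3), a 2-fold limit was applied by the authors, and peaks were annotated with ChIP-Seeker (v1.20.0). Read filters, the handling of duplicates, any Tn5 shift and the way samples were combined are not given in the sources used here, and each can change which peaks pass. The value deposited by the authors is a peak score of unstated scale, used only within a list, except in 1 alternative that puts the median of the lost list on both. The study's methods state a sequencing depth, but the deposited lists hold no read counts, so the depth behind each peak is not known.

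Peaks were annotated with GENCODE M21 on GRCm38, the sequence of mm10. Repeat is the share of soft-masked bases. A host is each gene with a transcript that spans the peak in an intron, and the longest transcript sets the intron number. The reference windows are all non-overlapping 151-base windows that met the member rule. Shares have Wilson, differences Newcombe, rates exact Poisson and mean GC a normal 95% interval. Motifs were counted once per peak on both strands. Those not spelled out in the results were HAND (CAGATG), ETS (ACAGGAAGT), AP-1 (TGACTCA), RUNX (TGTGGTT), FOX (TGTTTAC), ERR (TCAAGGTCA) and HIF (ACGTGC). MEF2, SRF and CTCF were searched as degenerate strings. No string held another in full. The 573 names of the 6 gene lists all matched the annotation. The functions were tested on simulated sequences and shares. Python 3.11.15, numpy 2.4.6 and scipy 1.17.1 were used.

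The members, motifs and gene lists were chosen with earlier results of these data known. Hosts named were the 12 with the most members and the 6 with the most lost members (with ties), hosts of both lists, and the leading hosts of each gene list. Peaks named were the 3 highest scores of each list and, for each motif that differed, the highest-scoring member in the list where the motif was more frequent. Alternatives were other distance, TSS, repeat, score, host, clustering and mismatch rules. Those without *Gm20388*, without tandem arrays and with *Asic2* in a list were added after seeing the data. Some hosts that this rule selects are not reported here.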

Additional observations from a re-analysis of the deposited data

How the results depend on the processing

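The number of deep intronic peaks (626) became 187 with a limit of 100 kb, 1460 with TSSs of protein-coding genes only, 416 with at most 10% masked bases, 226 with scores at or above the median of each peak's own list and 395 with scores at or above the median of the lost list. With that last limit the gained share became 83.0%. The difference from intronic peaks at 3 to 50 kb (-3.94 points) became -4.32 with 100 kb, -1.28 with protein-coding TSSs, -3.23 with no repeat limit, -1.32 with at most 10% masked, -2.52 with own-list medians, -3.67 with protein-coding hosts and -3.45 with peaks within 5 kb counted once, each with 0 inside its interval. It was 0.459 with the lost-list median. The difference from intergenic peaks (-5.79) became -0.564, -2.55 and -6.92 with 100 kb, at most 10% masked and own-list medians. Motifs more frequent in gained members numbered 1 with 100 kb and 5 with protein-coding TSSs (3 in the report), and those more frequent in lost members 0, 3 and, with 1 mismatch, 2 (1 in the report). With protein-coding TSSs the interval excluded 0 for synaptic receptors and channels (19.7 points), transcription factors (-9.89) and gained promoter peaks at the host (8.91). In that setting 129 peaks lie within 3 kb of a noncoding TSS and can themselves count as the promoter peak. The cause of the other changes was not tested. NFY, KLF and SOX kept their call except with 100 kb (7.77, 4.08 and -6.45 points), and MEF2 except with both score limits and 1 mismatch. The MEF2 difference was 3.14 points with own-list medians and 1.75 with 1 mismatch. With the lost-list median it was 5.49 points, with a wider interval (-0.288 to 8.51). The GC difference kept its call in each alternative. No paired analysis was possible because the lists hold no value per sample, and for the same reason leaving out a replicate could not be run. The deposited lists hold no read counts, so the depth behind each peak, and with it the number of weaker sites missed, was not estimated.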
